A study of Mus musculus with 6 samples.

Results

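Interneurons, the local inhibitory cells of the hippocampus, are told apart largely by the neuropeptides and calcium-binding proteins they make. The genes described here are 10 such subtype genes: Sst, Npy, Vip, Cck, Penk, Pdyn and Cort, which encode peptide precursors, Reln, which encodes the secreted glycoprotein reelin, and Calb2 and Pvalb, which encode the EF-hand calcium-binding proteins calretinin and parvalbumin. They were chosen by name, with earlier results of these data known. All 10 were measured, out of 22180 genes tested, each by a single array probe set that carries no other gene symbol. The cells were primary hippocampal cultures from mouse embryos at prenatal day 18, infected with AAV1/2 (an adeno-associated virus) 7 days after seeding and collected for RNA 7 days later. In 3 samples the treatment was Diras2 knockdown, Diras2 being a small GTPase of the Ras family, and 3 samples received a scrambled control. All 6 cultures were thus infected, and strain, promoter and construct sequence are not given in the sources used here. The samples are called biological replicates without separate cultures or litters being named, so the p-values reflect only how these samples vary, which may be partly technical.

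Neuropeptides are cut from larger precursors in dense-core vesicles and act on G protein-coupled receptors, usually after sustained or repeated firing. Somatostatin and neuropeptide Y mark dendrite-targeting interneurons and often occur in the same cells, cortistatin is a close relative of somatostatin that binds the same receptors, and VIP and calretinin mark interneurons that contact other interneurons. Cholecystokinin marks a class of basket cells and is also made by pyramidal cells, enkephalin and dynorphin are opioid peptides that principal cells make too, and reelin and calretinin also mark Cajal-Retzius cells. Parvalbumin marks fast-spiking basket cells and appears late, after birth. Transcription of many peptide genes, Sst being the classic case, is driven by cyclic AMP and by neuronal activity through the factor CREB, which binds the cyclic AMP response element TGACGTCA.

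This element, its core and a variant form are shown in their promoter setting because CREB sites are well-known control elements of peptide genes. Promoter windows of 300 bases (250 before and 50 after the annotated start) were available from RefSeq, build GRCm38.p6, for 8 of the 10 genes, all but Penk and Calb2. The windows of Sst, Vip, Cck and Cort held the core TGACG or its reverse complement CGTCA, 4 of 8 genes against 23% of 27025 genes with a window. Of these, Sst alone held the full palindrome TGACGTCA, which 2.03% of genes have, and it contains the core on both strands. Cck and Cort held the form TGCGTCA, found with its reverse complement TGACGCA in 2.42% of genes, and this form includes CGTCA. In the stretches below, printed 5′ to 3′ on the strand of the gene, capitals mark these letters.
Sst, chr16:23890865-23890912, minus strand: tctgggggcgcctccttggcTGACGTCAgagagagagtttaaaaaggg
Vip, chr10:5639119-5639163, plus strand: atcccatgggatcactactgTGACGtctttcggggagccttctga
Cck, chr9:121495717-121495763, minus strand: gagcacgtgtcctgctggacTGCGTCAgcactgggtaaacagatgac
Cort, chr4:149126764-149126803, minus strand: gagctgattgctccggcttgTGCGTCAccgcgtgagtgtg
The capitals begin 48 bases before the start in Sst, 79 in Vip, 49 in Cck and 20 in Cort. The windows of Npy, Reln, Pdyn and Pvalb held none of these letters. A match describes the sequence only and does not show that a factor binds there.

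Diras2 was lower in every knockdown array. Its values were 7.17, 6.23 and 6.08 in knockdown replicates 1, 2 and 3, against 10.17, 10.17 and 9.76 in the controls. Levels here and below are log2 RMA expression levels, on which a difference of 1 is a doubling, and they compare arrays for the same gene, not different genes. RNA integrity numbers ran from 9 to 9.3 in the knockdown samples and from 8.8 to 9.2 in the controls, and Pearson correlations between arrays of different groups were 0.981 to 0.989 across the genes tested. Same-numbered knockdown and control samples deviated together from their group means. Across genes, their deviations correlated at 0.427, 0.121 and 0.374 for the 3 numbers, and at -0.378 to 0.0568 for samples with different numbers. The 3 deviations of a group cancel out, so positive values for same-numbered samples force negative ones elsewhere. The negative values are therefore no separate support for pairing. The labels do not say what a number shares, so this pairing comes from the data. Results are therefore given from the fit without the replicate number and, where it changes a call, from the fit with it as a block, which compares the samples within each number. Genes were called at an adjusted p under 0.05 by limma with Benjamini-Hochberg adjustment over all genes tested.

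Of the 10 subtype genes, 4 peptide genes, Sst, Npy, Cort and Penk, were lower in the knockdown than in the control of the same number in each of the 3 pairs, by 1.77-fold to 2.37-fold on average, and fell in the blocked fit. Without the block 0 of the 10 were called, where 7.80% of all genes were (3.64% lower and 4.17% higher), and 0 had an unadjusted p under 0.05. With it 4 fell and 0 rose, where 5.64% of genes fell and 6.05% rose, and the same 4 had an unadjusted p under 0.05. The share of all genes at an unadjusted p under 0.05 was not computed, so the unadjusted counts are not a result about the list. The median log2 difference of the 10 was -0.28, against 0 over all genes tested, and 8 lay below 0. All 3 pairs were lower for 6 of the 10 (22.0% of all genes) and higher for 1 (23.0%). In cultures of mixed cells, fewer cells of a type and less RNA per cell cannot be told apart.

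**Figure D1:**
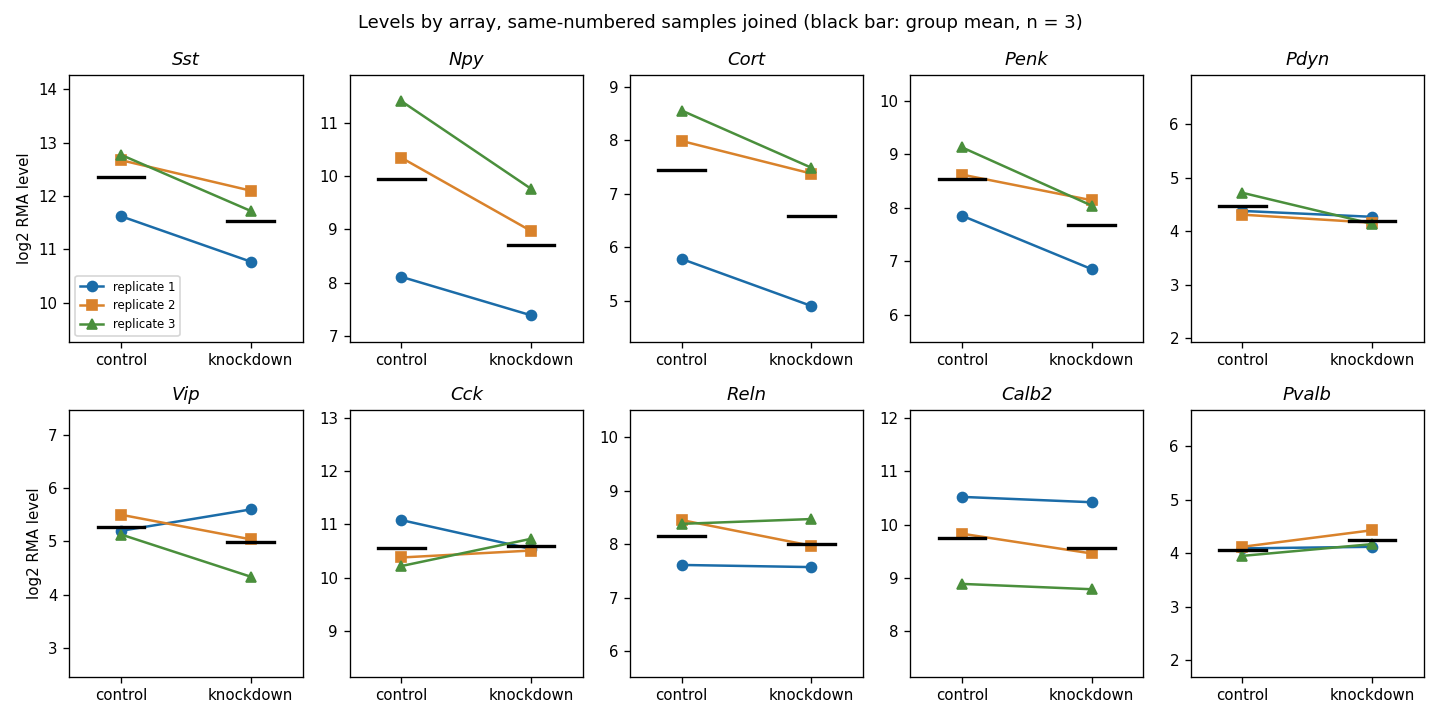
Log2 RMA level (y axis, each panel spanning 5 units) of the 10 genes in the 3 control and 3 knockdown arrays, with same-numbered samples joined by a line and group means as black bars. For Sst, Npy, Cort and Penk all 3 lines run down while replicate 1 lies below the others in its group, and for Calb2 replicate 1 lies above them.

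Sst encodes somatostatin, an inhibitory peptide of dendrite-targeting interneurons. Its level was 10.77, 12.10 and 11.72 in knockdown replicates 1, 2 and 3 and 11.62, 12.67 and 12.77 in the controls. The groups overlapped, because control replicate 1 lay below knockdown replicates 2 and 3, yet every knockdown sample was below its same-numbered control, by 0.85, 0.57 and 1.05. The log2 difference was -0.82. By limma its adjusted p was 0.282 without the block (SE 0.39) and 0.00806 with it (SE 0.12). Its 95% interval ran from -1.72 to 0.07 without the block and from -1.11 to -0.54 with it.

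Cort, the cortistatin precursor, showed the same arrangement over a wider range. It stood at 4.90, 7.38 and 7.49 in the knockdown and at 5.78, 7.99 and 8.56 in the control. Both replicate 1 arrays were low, more than 1.5 below every other array, and the pairs differed by -0.88, -0.61 and -1.07. The log2 difference of -0.85 had an adjusted p of 0.655 without the block (SE 0.85) and of 0.00688 with it (SE 0.12, limma). Replicate number held 88.2% of the gene's sum of squares over the 6 arrays and treatment 11.3%.

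Npy encodes neuropeptide Y, which dampens glutamate release. It had the largest difference of the 10 genes. Its level was 7.39, 8.97 and 9.76 in the knockdown and 8.11, 10.34 and 11.40 in the control, so the spread between samples of one group was larger than the difference between groups. Within pairs it was lower by 0.72, 1.37 and 1.64. The mean log2 difference was -1.24, or 2.37-fold, with an adjusted p of 0.477 without the block (SE 0.84) and of 0.00767 with it (SE 0.18, limma).

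Penk encodes the precursor of the enkephalins, opioid peptides with high affinity for delta receptors. Knockdown values were 6.85, 8.14 and 8.04 and control values 7.85, 8.62 and 9.13. The knockdown sample was lower by 1.00, 0.48 and 1.09 within pairs, although the groups overlapped. The log2 difference of -0.86 had an adjusted p of 0.276 without the block (SE 0.40) and of 0.0122 with it (SE 0.14, limma).

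The blocked calls of Sst, Cort and Penk each need all 3 pairs. With both arrays of one replicate number left out, the log2 differences of these genes and Npy stayed below 0, from -0.71 to -0.95 for Sst, -1.05 to -1.51 for Npy, -0.74 to -1.05 for Penk and -0.75 to -0.98 for Cort. Of these 12 fits, 1 kept its call, Npy without replicate 1 (adjusted p 0.0477), and the others had adjusted p-values from 0.0911 to 0.177. Such fits keep 1 residual degree of freedom a gene, and Diras2 itself lost its call in 2 of the 3, with adjusted p-values of 0.123 without replicate 2 and 0.0733 without replicate 3.

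**Figure D2:**
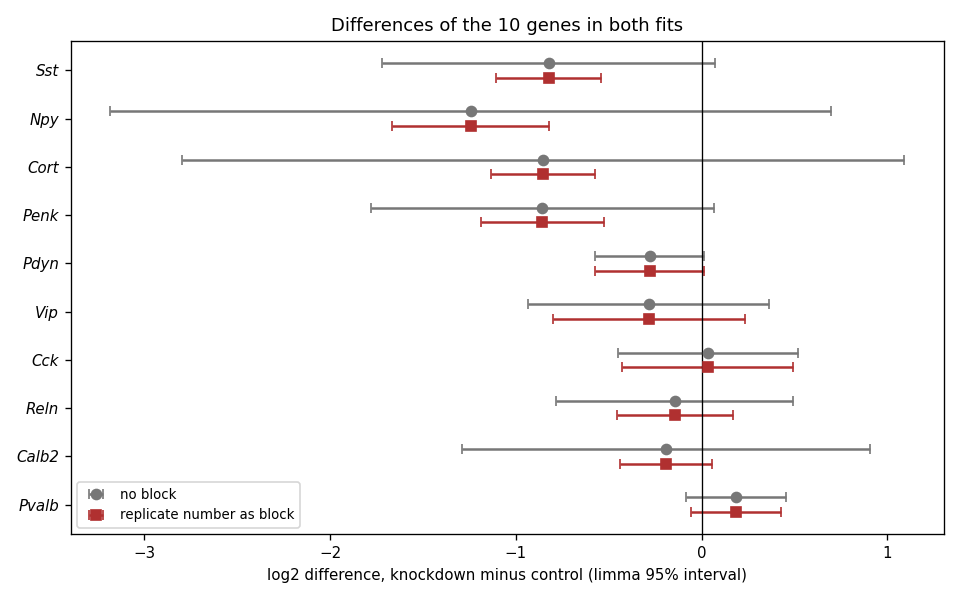
Log2 difference, knockdown minus control (x axis), of the 10 genes with limma 95% intervals, in grey without a block and in red with the replicate number as a block. The estimates are the same in both fits, and the red intervals of Sst, Npy, Cort and Penk lie wholly below 0 while the grey ones reach across it.

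The remaining peptide genes were called in neither fit. Pdyn, which encodes the dynorphins, opioid peptides of the kappa receptor, was the only one of the 10 whose groups did not overlap (25.5% of all genes did not). It read 4.27, 4.16 and 4.14 in the knockdown and 4.38, 4.31 and 4.72 in the control, all below the median level of 5.06 over the genes tested, and whether these values stood above background was not tested. Its log2 difference was -0.28 (95% interval -0.57 to 0.01), and limma gave adjusted p-values of 0.264 and, with the block, 0.214. Its exact two-sided permutation p was 0.1, and 3 arrays a group can give none smaller. That test reassigns arrays to groups without regard to replicate number, so it is not comparable with the blocked fit. The other 9 genes had exact p-values from 0.2 to 1.

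Vip, the precursor of vasoactive intestinal peptide, had no common direction. Its values were 5.60, 5.04 and 4.34 in the knockdown and 5.20, 5.50 and 5.13 in the control, higher in the first pair and lower in the other 2. The log2 difference was -0.28 with a blocked 95% interval from -0.80 to 0.23, and its sign turned without knockdown replicate 3 (0.04).

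Cck, the cholecystokinin precursor, was near even between groups. It read 10.54, 10.51 and 10.73 in the knockdown and 11.08, 10.38 and 10.22 in the control. The log2 difference was 0.03 with a blocked interval from -0.43 to 0.49, so a change of the size measured for Sst lay outside it, and the sign turned in several of the alternatives.

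Reln was likewise not called. Its values of 7.57, 7.97 and 8.47 in the knockdown and 7.61, 8.45 and 8.38 in the control overlapped, and the log2 difference was -0.14 (blocked interval -0.46 to 0.17). RefSeq places 3 other genes within its span and 1, Gm38661, within that of Cck, and whether these share signal with the probe sets was not tested.

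For the calcium-binding proteins the differences between groups were small. Calb2 stood at 10.42, 9.46 and 8.79 in the knockdown and 10.52, 9.83 and 8.89 in the control. Each knockdown sample was slightly below its partner, by 0.10, 0.37 and 0.10, and the log2 difference of -0.19 had a blocked adjusted p of 0.316 (limma). Pvalb read 4.12, 4.43 and 4.17 against 4.09, 4.12 and 3.95, again below the median level over the genes tested. It was the only one of the 10 that was higher in all 3 pairs, with a mean log2 difference of 0.19 (limma adjusted p 0.432, or 0.315 with the block).

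Most of the subtype genes varied widely between samples of one group. The pooled SD within groups was 1.46 for Npy and 1.47 for Cort, against a median of 0.152 over all genes tested. Npy, Cort, Calb2, Penk and Sst ranked above 99.4% of genes by this SD, and Pdyn and Pvalb near the middle, above 54.8% and 40.2%. Replicate number held 97.1% of the sum of squares of Calb2, 86.2% of that of Reln, 76.6% of that of Npy and 61.2% of that of Sst, where the median over all genes was 35.7%. The direction was not shared: the replicate 1 arrays of both groups were lowest in their group for Sst, Npy, Cort, Penk and Reln and highest for Calb2. Replicate 3 was highest in both groups for Npy and Cort and lowest for Calb2.

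Genes of activity-regulated transcription were set beside this pattern. Of 14 measured genes of the CREB pathway and its targets, 0 were called in either fit. Across all genes 7.80% were called without the block and 11.7% with it. In this list 1 gene had an unadjusted p under 0.05 without the block and 5 did with it, a share not computed for all genes. The median log2 difference of the 14 was -0.23. Fos and Npas4, immediate early genes named here after their values were seen, were low in both replicate 1 arrays, whereas Camk4, a kinase that activates CREB, read 9.09, 8.86 and 8.88 in the knockdown and 9.61, 9.29 and 8.63 in the control, highest in replicate 1. Npas4 read 5.59, 8.04 and 8.19 in the knockdown and 5.55, 7.93 and 9.80 in the control, and Fos 5.63, 7.49 and 7.61 against 5.88, 7.89 and 9.09. Within pairs Npas4 differed by 0.04, 0.11 and -1.61 and Fos by -0.25, -0.40 and -1.48. Crebbp, a coactivator of CREB, Crtc3, another, and Crem, a CREB relative, had the smallest p-values of the list, differing by -0.39, -0.23 and -0.52 on the log2 scale (limma, adjusted p 0.083, 0.299 and 0.308). The part of neuronal activity in the peptide differences was not tested.

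**Figure D3:**
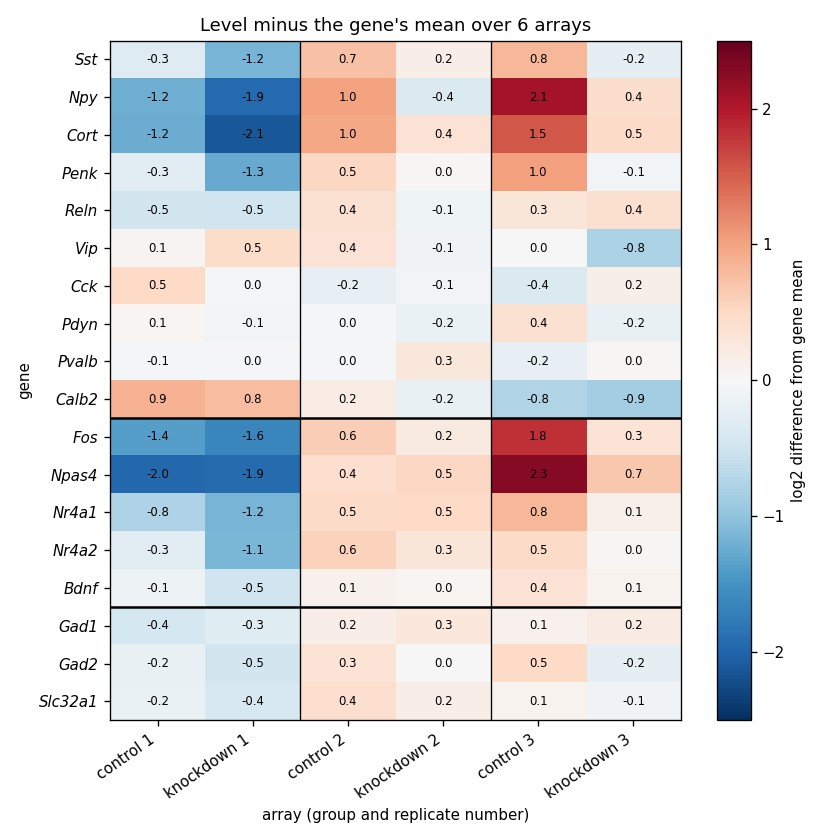
Level minus the gene's mean over the 6 arrays (colour and number, log2) for the 10 subtype genes, 5 activity-regulated genes and 3 GABAergic markers (rows), with arrays ordered by replicate number (columns). The 5 activity-regulated genes were picked from the list of 14 after their values were seen. Of the list's genes not plotted, Crem was also lowest in replicate 1 of both groups, Camk4 and Crtc1 were highest there, and Nr4a3 was neither. Both replicate 1 columns lie below the gene's mean for Sst, Npy, Cort, Penk and Reln, and for all 5 activity-regulated genes and all 3 GABAergic markers. They lie above it for Calb2 and slightly for Vip, and barely below it for Pvalb.

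Receptors of these ligands were mostly not called. Of 19 measured receptor and reelin-pathway genes 1 rose, 0 fell and 18 did not pass, and with the block 2 rose, against 4.17% and 6.05% of all genes. Lrp8, a receptor of reelin also known as ApoER2, rose 1.55-fold, from 8.61, 8.58 and 8.66 in the controls to 9.34, 9.17 and 9.24, with no overlap (adjusted p 0.0068, limma). The other reelin receptor, Vldlr, and the adaptor Dab1 differed by 0.32 and 0.26 on the log2 scale and did not pass (adjusted p 0.214 and 0.242). Sstr2, a somatostatin receptor, rose 0.48 on the log2 scale with the block (adjusted p 0.046, and 0.193 without it), from 8.57, 8.12 and 7.80 in the controls to 8.83, 8.58 and 8.53. Sstr1 had a log2 difference of -0.35 and did not pass (adjusted p 0.170).

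Most genes of the machinery that makes and stores peptides were not called. Of 19 measured genes of peptide processing and dense-core vesicles 2 fell, 2 rose and 15 did not pass, where 3.64% of all genes fell and 4.17% rose. With the block 5 fell and 2 rose, against 5.64% and 6.05%. Pcsk1, a convertase that cuts peptide precursors, fell 1.54-fold with an adjusted p of 0.0497, a call lost without 4 of the 6 arrays taken singly (control replicates 1 and 2 and knockdown replicates 1 and 3, 0.109 to 0.162) and with median centring (0.0609), a robust fit (0.0507), the mean of probe sets (0.05) or all probe sets tested (0.0525). Ptprn, a dense-core vesicle membrane protein, fell 1.58-fold (adjusted p 0.0055). Syt4, a synaptotagmin of these vesicles, rose 1.77-fold (0.00347), and Furin, a convertase of the Golgi, 1.42-fold (0.0349), a call lost without any array but knockdown replicate 1 (0.0526 to 0.131) and with quantile normalisation (0.0553).

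With the block Scg2, Vgf and Qpct also fell. Scg2 and Vgf are granins, cargo of dense-core vesicles, and Qpct is the enzyme that caps peptides with pyroglutamate. Vgf read 8.18, 9.11 and 9.16 in the knockdown and 9.02, 9.80 and 10.28 in the control, so that, as for Sst, the replicate 1 arrays were lowest and each knockdown sample was below its partner. Log2 differences were -0.84 for Scg2, -0.88 for Vgf and -0.78 for Qpct, with blocked adjusted p-values of 0.007, 0.006 and 0.005 and unblocked ones of 0.074, 0.198 and 0.256 (limma).

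Among 17 other measured neuropeptide precursors 1 fell, 0 rose and 16 did not pass, and with the block 4 fell and 1 rose. The shares over all genes were 3.64% lower and 4.17% higher, and 5.64% and 6.05% with the block. Tac1, the precursor of substance P, fell 3.94-fold (adjusted p 0.0277), with the call lost without control replicate 2 or any knockdown replicate (0.0663 to 0.106). With the block Adcyap1, the PACAP precursor, Grp, gastrin-releasing peptide, and Pnoc, the nociceptin precursor, fell, their log2 differences being -1.27, -0.71 and -0.77 (adjusted p 0.014, 0.023 and 0.034, against 0.086, 0.128 and 0.524 without it). Nppc, the C-type natriuretic peptide precursor, rose 0.63 (0.009, and 0.090 without the block).

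**Figure D4:**
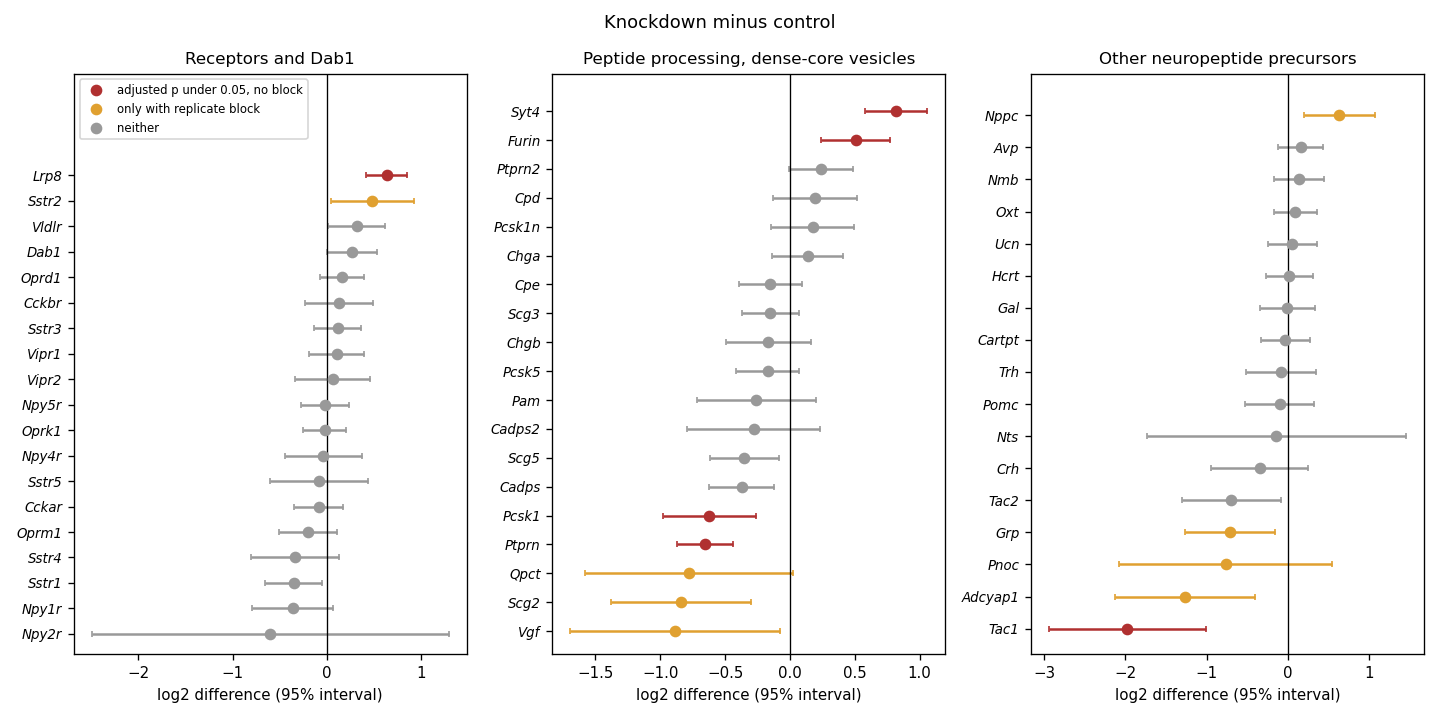
Log2 difference, knockdown minus control (x axis, limma 95% interval without a block), of the receptors with Dab1, the peptide processing genes and the other neuropeptide precursors. Red points had an adjusted p under 0.05 without the block, orange points only with the replicate block, and grey points in neither; Lrp8 and Syt4 lie highest in their panels and Tac1 lowest.

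Calb2 and Pvalb belong to the large EF-hand family. Of 19 other measured members of it, 2 fell and 0 rose without the block and 2 fell and 3 rose with it. Over all genes 3.64% fell and 4.17% rose without the block, and 5.64% and 6.05% with it. Calb1, calbindin, which marks some interneurons and also granule and pyramidal cells, read 8.31, 8.32 and 8.48 in the knockdown and 9.28, 9.34 and 9.29 in the control, a 1.91-fold fall with an adjusted p of 0.00156 (limma). S100a10, a partner of annexin A2, fell 1.82-fold (0.00497). Hpcal4, a neuronal calcium sensor, and Necab3 and Necab2, neuronal calcium-binding proteins, rose with the block, by 0.86, 0.61 and 0.52 on the log2 scale (blocked adjusted p 0.012, 0.036 and 0.017, unblocked 0.054, 0.061 and 0.109).

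Of 15 other measured genes that distinguish interneuron subtypes 4 fell, 1 rose and 10 did not pass, where 3.64% of all genes fell and 4.17% rose. The blocked fit gave the same counts with Tacr1, a substance P receptor, in place of Chrm2, against 5.64% and 6.05% of all genes. Besides Calb1, Ndnf, of neurogliaform cells, fell 2.05-fold, Kcnc2, a potassium channel of fast-spiking cells, 1.86-fold and Chrm2, a muscarinic receptor, 1.98-fold (adjusted p 0.0127, 0.0298 and 0.0385). Nos1, neuronal nitric oxide synthase, often found together with neuropeptide Y, rose 2.01-fold, from 6.71, 6.85 and 6.74 to 7.62, 7.96 and 7.75 (0.00237). Chrm2 lost its call with the block (0.0526) and without any array but control replicate 1 (0.0529 to 0.114). Kcnc2 lost its call without control replicates 2 or 3 or knockdown replicates 2 or 3 (0.0782 to 0.121), and Ndnf without control replicate 2 (0.0522).

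Of 17 measured lineage factors of interneurons 2 fell, 1 rose and 14 did not pass, where 3.64% of all genes fell and 4.17% rose. With the block 4 fell and 1 rose, against 5.64% and 6.05%. Lhx6, which specifies the somatostatin and parvalbumin lineages, fell 2.30-fold (adjusted p 0.0063), Etv1 fell 1.73-fold (0.0179), and Satb1, which promotes maturation of somatostatin cells, rose 2.17-fold (0.0181). Both latter calls were lost without knockdown replicates 2 or 3 (0.0674 to 0.0797), and that of Etv1 with the mean of its probe sets (0.078). With the block Maf and Dlx2 also fell, with log2 differences of -0.64 and -0.60. With RNA integrity as a covariate the calls of Etv1, Satb1, Ndnf, Kcnc2, Chrm2, Abat, Cxcr4, Furin and Tac1 were lost (0.0578 to 0.134), as were those of the marker genes Pdgfra (0.0514), Snap25 (0.0966), Dcx (0.109) and Fezf2 (0.15).

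Markers of the cells that could carry these transcripts were set beside the results. Their counts stand against 3.64% of all genes lower and 4.17% higher, or 5.64% and 6.05% with the block. Gad1 and Gad2, which make GABA, and Slc32a1, which loads it into vesicles, had log2 differences of 0.11, -0.45 and -0.22 and were called in neither fit. Gad1 was higher in all 3 pairs and the other 2 lower. Like Sst, each of these 3 markers was lowest in replicate 1 of both groups. Of 4 measured GABAergic genes 1, the GABA-degrading enzyme Abat, fell (adjusted p 0.0277, lost without knockdown replicates 2 or 3 or control replicates 2 or 3, 0.0611 to 0.112). The log2 of their summed linear level was 10.9 to 11.0 in the knockdown and 11.1 to 11.7 in the control. Abat, at 9.43 to 9.73 in the knockdown and 9.99 to 10.53 in the control, and Gad2, at 9.37 to 9.84 and 9.65 to 10.33, made up most of it. This sum therefore leans on the 1 called gene and does not by itself describe the number of GABAergic cells. Of 13 Cajal-Retzius markers 1 fell, Cxcr4 (lost without knockdown replicates 2 or 3 or control replicate 2, 0.0618 to 0.0675), with summed levels of 10.6 to 11.2 and 11.1 to 11.9. With the block Cdkn1a, a cell cycle inhibitor that other cells also make, fell too, with a log2 difference of -0.65 (blocked adjusted p 0.00795, unblocked 0.296). Cdkn1a was the brightest gene of the list, at 9.80 to 10.77 in the knockdown and 10.40 to 11.51 in the control. It made up most of the summed level, which therefore does not describe Cajal-Retzius cells alone. Trp73, the defining marker, read 4.80 to 4.85 in the knockdown and 4.71 to 5.11 in the control. Of 13 excitatory neuron markers 2, Calb1 and Fezf2, fell (summed level 12.5 to 13.0 and 12.5 to 13.1) and Slc17a7 read 10.27 to 11.05 and 9.93 to 10.94. With the block Wfs1 also fell, with a log2 difference of -0.63 (blocked adjusted p 0.0108, unblocked 0.197). Of 12 markers of neurons of any type Snap25 fell and Dcx rose (14.6 to 14.9 and 14.8 to 15.1). With the block Syt1 and Nefm also fell, making 3 that fell and 1 that rose, with log2 differences of -0.58 and -0.45 (blocked adjusted p 0.0130 and 0.0470, unblocked 0.107 and 0.181). Without single arrays the calls of Fezf2 (0.0853 to 0.15), Snap25 (0.0811 to 0.168) and Dcx (0.0693 to 0.077) were lost, each for 4 or 5 of the 6, and that of Snap25 also with median centring (0.07) or quantile normalisation (0.0592).

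Among glial and other lists 0 of 10 astrocyte (summed level 12.7 to 12.8 and 12.8 to 13.0), 0 of 10 microglial (7.75 to 7.83 and 7.85 to 8.10), 0 of 8 endothelial (6.96 to 7.38 and 6.96 to 7.24) and 0 of 8 fibroblast markers (9.40 to 9.86 and 8.77 to 10.2) were called by limma without the block. At an unadjusted p under 0.05 these counts were 1, 2, 0 and 1, a share not computed for all genes. With the block 1, 1, 0 and 1 were called, namely Gja1, Csf1r and Lum, which fell. Across all genes 3.64% fell and 4.17% rose without the block, and 5.64% and 6.05% with it. Of 11 oligodendrocyte lineage markers 1, Pdgfra, rose (9.75 to 10.8 and 9.86 to 10.1), a call lost without control replicate 2 (0.0575). Gfap read 7.42 to 8.89 and 8.06 to 8.93, Aif1 3.68 to 3.89 and 3.58 to 3.89, Pecam1 4.06 to 4.20 and 4.10 to 4.43, and Col1a1 6.11 to 6.80 and 6.05 to 6.30. Dcn was the brightest fibroblast marker, at 8.19 to 9.37 in the knockdown and 7.27 to 9.86 in the control. It carried much of the range of that summed level. These array values have no 0, and the part of cell composition in the peptide differences was not tested.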

How the data were processed

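Total RNA was amplified, labelled as single-stranded DNA and hybridised to Affymetrix arrays, per the labels' protocols. Per the submitters' processing notes, RMA (Affymetrix Expression Console 1.2.1.20) was run by the authors, and the deposited table holds its log2 levels, a row for each probe set. RMA corrects background and puts arrays on one distribution, so a shift common to all genes cannot be seen and differences of dim genes are understated. Detection calls and probe intensities were not used here, and precision is limited by the number of arrays.

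Of 41345 probe sets, 23521 had exactly 1 gene symbol, giving 22180 genes, with the brightest probe set by mean over the 6 arrays where a gene had several. Knockdown was compared with control with limma 3.58.1 in R 4.3.3 (lmFit, eBayes without trend), with and without the replicate number as a block. The code was checked on simulated data by its recovery of large changes. Replicate number held a smaller share of the variation there than for Sst, Npy, Cort and Penk. That check therefore does not bear on their blocked calls. Every same-numbered pair correlated above 0.1 in its deviations, the bound for treating the numbers as pairs. Number 2 passed it narrowly at 0.121, where knockdown replicate 2 and control replicate 3 correlated at 0.0568. The bound was applied to the same data, so passing it is no independent support for the pairing on which the 4 blocked calls rest. Folds are 2 raised to the size of the log2 difference. The genes and lists were chosen with earlier results of these data known. Genes named were Diras2, the 10 subtype genes, the 3 genes with the smallest p and the called genes of each pathway and interneuron list, and fixed defining markers. Genes called only with the block, called cell type markers, Vldlr, Dab1, Camk4, Fos, Npas4 and the other activity genes plotted were added after their values were seen. Alternatives were the block, leaving out arrays or pairs, normalisation, a filter on dim genes, variance priors, array weights, RNA integrity and other uses of probe sets. Figures were drawn with matplotlib 3.10.9.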

Additional observations from a re-analysis of the deposited data

How the results depend on the processing

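Without the block no alternative called any of the 10 subtype genes; with the replicate block 4 were called lower. Over 16 alternatives (15 for Pdyn and Pvalb, which the filter on dim genes removes) Sst, Npy, Penk, Cort, Pdyn and Pvalb kept their direction, with log2 differences of -1.19 to -0.443 for Sst, -2.163 to -0.518 for Npy, -1.198 to -0.443 for Penk and -1.685 to -0.008 for Cort. Reversed values were those of Cck without knockdown replicate 3 (-0.035), control replicate 2 (-0.057) or control replicate 3 (-0.137), with quantile normalisation (-0.020) and with RNA integrity as a covariate (-0.196), of Reln without knockdown replicate 1 (0.073) or control replicate 2 (0.008), of Vip without knockdown replicate 3 (0.043), and of Calb2 without knockdown replicate 3 (0.193) or control replicate 1 (0.197). Gad1 reversed without control replicate 1 (-0.082), Fos without control replicate 3 (0.025), and Npas4 without knockdown replicate 1 (0.355), without control replicate 3 (0.533) and in the fit with RNA integrity (0.088). The cause was not tested. Over the fits that left out 1 array or pair, the far ends of these genes were -0.625 for Vip, 0.320 for Cck, -0.412 for Reln, -0.622 for Calb2, -1.580 for Fos, 0.295 for Gad1 and -1.592 for Npas4.

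With the replicate block, counts called were 2 for receptors, 7 for peptide processing, 5 for other precursors, 5 for EF-hand proteins and 5 for lineage factors. Array weights gave 5 for other precursors, 5 for EF-hand proteins, 1 for the CREB list and 6 for lineage factors. RNA integrity as a covariate gave 0 for other precursors, 0 for GABAergic markers, 1 for lineage factors and 2 for other subtype genes. Genes above the median level, where fewer genes are tested, gave 4 for EF-hand proteins and 1 for the CREB list. They gave 0 subtype genes without overlap, because that filter removes Pdyn. An intensity trend gave 1 for the CREB list. Leaving out 1 array gave Diras2 differences of -3.878 to -3.333, 1 to 6 subtype genes without overlap (6 without control replicate 1, 3 without knockdown replicate 1, 2 without control replicate 2), and counts of 1 to 2 for receptors, 2 to 3 for peptide processing, 0 to 2 for other precursors, 0 to 1 for GABAergic markers, 1 to 7 for lineage factors and 2 to 5 for other subtype genes. Groups of 3 and 2 arrays separate more easily than groups of 3 and 3. The share of all genes without overlap was not computed for them, so these non-overlap counts are not a result about the subtype genes.

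Leaving out both arrays of a replicate number in the blocked fit was chosen after seeing the data. It gave 0 to 1 subtype genes called lower, Diras2 differences of -3.81 to -3.34, and counts of 0 for receptors, peptide processing, other precursors, EF-hand proteins and GABAergic markers, 0 to 1 for lineage factors and 0 to 3 for other subtype genes. Its reversed values were Cck without replicate 2 (-0.015) or replicate 3 (-0.205), Reln without replicate 2 (0.025) and Npas4 without replicate 3 (0.075).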
